A study of Mus musculus with 4 samples.

Results

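Capillary endothelial cells of mouse hindlimb muscle, the thin exchange vessels between arterioles and venules, were described in 4 single-cell RNA sequencing libraries. The irradiated libraries (IR) came from hindlimbs, taken 24 hours after the last of 3 fractions of 8.2 Gy X-rays, or 56 days after irradiation. Each had as its control (CON) the contralateral hindlimb of irradiated male C57Bl/6J mice, which lay under lead with the rest of the body; the limbs were dissected and processed apart. Mice were 5 weeks old at irradiation, and 3 limbs were pooled into 1 library per group before live, Hoechst-stained, mononucleated cells were sorted. The CON mice at 56 days were therefore older than those at 24 hours, and every CON cell came from an animal whose other limb had been irradiated.

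The cells were chosen by their own UMIs (unique molecular identifiers, each standing for 1 captured RNA molecule). A member had at least 200 genes, at least 500 UMIs, at most 20% mitochondrial UMIs, at least 3 UMIs of the endothelial genes Pecam1, Cdh5, Egfl7 and Cldn5, and 0 UMIs of Ptprc, Pdgfra and Pax7, genes of leukocytes, stromal cells and satellite cells. It also had at least 3 UMIs of the capillary genes Gpihbp1, Cd36 and Rgcc. Cells were left out at 3 or more UMIs of arterial genes (Sema3g, Gja5, Stmn2, Gkn3, Alpl), at 3 or more of venous genes (Ackr1, Vwf, Selp), at 2 or more of tip-cell genes (Apln, Prnd, Esm1), or at 3 or more of interferon-induced genes (Ifit1, Ifit2, Ifit3, Rsad2). The rule left 1791 of 6544 kept cells, out of 7086 deposited barcodes. Members numbered 910 in IR and 271 in CON at 24 hours, and 168 in IR and 442 in CON at 56 days, within 1541, 469, 476 and 761 cells that met the endothelial limits in those libraries.

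Capillary endothelium of muscle takes up fatty acids from triglyceride-rich lipoproteins: GPIHBP1 carries lipoprotein lipase to the vessel lumen, CD36 imports the released fatty acids, FABP4 binds them in the cytoplasm, and MEOX2 with TCF15 drives this transport programme. In the resting adult vessel these cells rarely divide. X-rays break DNA and stabilise the transcription factor p53, whose targets include the cell cycle inhibitor p21, encoded by Cdkn1a, and the ubiquitin ligase MDM2, which removes p53 again.

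The rule used Gpihbp1, Cd36 and Rgcc, so their levels only describe the choice. The median member held 13 UMIs of the 3 genes in IR and 20 in CON at 24 hours, and 15 in IR and 19 in CON at 56 days. At the edge of the rule, 49, 13, 8 and 25 members of those libraries had exactly 3 such UMIs, with median depths of 1117, 704, 867 and 938 UMIs. Just outside it, 49, 11, 15 and 9 otherwise eligible cells had exactly 2, with median depths of 888, 728, 793 and 924 UMIs. The share of endothelial cells that passed was 59.1% (56.5 to 61.5) in IR and 57.8% (53.2 to 62.3) in CON at 24 hours, and 35.3% (31.0 to 39.8) in IR and 58.1% (54.5 to 61.6) in CON at 56 days. Each limit of the rule rests on genes that may themselves differ between limbs, so these shares do not measure capillary number: in IR at 56 days 25.4% of endothelial cells met the arterial limit, 16.6% the tip-cell limit and 21.6% the interferon limit, against 19.2%, 3.42% and 15.6% in CON.

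The remaining markers of the label were outside the rule. Timp4, an inhibitor of matrix metalloproteinases, was higher in members than in the other endothelial cells of every library, with ratios of 1.87 in IR and 1.86 in CON at 24 hours, and 2.62 in IR and 1.82 in CON at 56 days. Car4, a carbonic anhydrase at the luminal surface of capillaries, had 2.21, 1.64, 2.13 and 1.32 in the same order. Not every gene of the capillary identity list used below was higher in members. Btnl9, Ly6a, Id1 and Id3 were lower in members in every library, with ratios of 0.395 to 0.881, 0.754 to 0.911, 0.783 to 0.934 and 0.792 to 0.997. For the word quiescent, UMIs of Mki67 or Top2a, which dividing cells carry, were found in 0 of 910 IR members at 24 hours, which by a count of 3 allows up to 0.330% of members to carry such a UMI, and in 1 of 271 CON members. At 56 days they were found in 4 of 168 IR members (2.38%, 0.652 to 5.98), which held 15 such UMIs with 7 of them in 1 cell, and in 2 of 442 CON members (0.452%, 0.0548 to 1.62).

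Members held 3311355 UMIs in IR and 957218 in CON at 24 hours, and 535595 in IR and 1299153 in CON at 56 days, with medians of 3166, 2964, 3083 and 2705.5 UMIs per cell. Levels are given as CPM, the UMIs of a gene per 1000000 member UMIs of a library. With 1 library per group no difference between groups could be tested, and the values in parentheses are 95% intervals for counting error alone. A gene is called measured with at least 20 UMIs over both libraries, and higher or lower at 1.5-fold or more. By this measure 17.6% of 10221 genes were higher and 7.00% lower in IR than in CON at 24 hours, and 13.6% of 8210 were higher and 15.7% lower at 56 days. Ratio intervals lay wholly past 1.5-fold for 245 genes higher and 61 lower at 24 hours, and for 120 higher and 95 lower at 56 days. Markers of other cells moved with the libraries: summed mural (pericyte and smooth muscle) markers had 1331 CPM in IR and 765 in CON at 24 hours, and 448 and 366 at 56 days; fibro-adipogenic markers 927 and 89.8, then 29.9 and 160.1; myofibre markers 735 and 395, then 239 and 328; and erythroid markers 2649.7 and 262, then 155 and 219. In IR at 24 hours 1 cell carried 58.2% of the erythroid UMIs and 1 cell 34.3% of the fibro-adipogenic ones. Leukocyte markers had 10.3 CPM in IR and 56.4 in CON at 24 hours, and 52.3 and 132 at 56 days. The part these other RNAs had in the results below was not tested, except where values without mixed cells are given.

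Targets of p53 were higher in IR members at both times. The most abundant listed target in IR members at both times was Cdkn1a, which lies on the plus strand of chromosome 17 at 29090976 to 29100727 of mm10. Its promoter is shown because it is the one promoter among those matched to the p53 target list that held a pair of CATG cores, the core letters preferred in p53 response elements, spaced by 6 bases. The window is RefSeq's for GRCm38.p6, chr17:29090729-29091028 on the plus strand, 5′ to 3′, with both CATG cores in capitals, starting 48 bases before the annotated start of this window.
Cdkn1a: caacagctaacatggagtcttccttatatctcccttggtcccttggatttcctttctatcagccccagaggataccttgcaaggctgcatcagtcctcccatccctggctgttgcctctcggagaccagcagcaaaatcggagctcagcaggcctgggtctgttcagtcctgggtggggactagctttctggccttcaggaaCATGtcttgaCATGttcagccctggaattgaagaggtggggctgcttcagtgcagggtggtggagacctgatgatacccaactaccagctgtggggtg

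The motif CATGNNNNNNCATG, searched on both strands, was present in 0.712% of 32851 promoter windows of 300 bases. Among p53 targets 26 of 36 genes had a window, and Cdkn1a was the 1 gene with a match, in 1 of its 2 windows. A match describes letters in the window and is not a measured binding site.

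Cdkn1a had 2466 (2413 to 2520.4) CPM in IR and 319.7 (285 to 358) CPM in CON members at 24 hours. At 56 days it had 1578 (1473 to 1688) CPM in IR and 147 (127 to 169) CPM in CON members. Both IR libraries thus stood above both CON libraries. The ratio of IR to CON was 7.72 (6.88 to 8.68) at 24 hours and 10.7 (9.16 to 12.6) at 56 days. The 24 hour ratio of Cdkn1a was smaller than the 56 day ratio although the IR level was higher, since the CON level at 24 hours was itself higher than at 56 days.

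**Figure D1:**
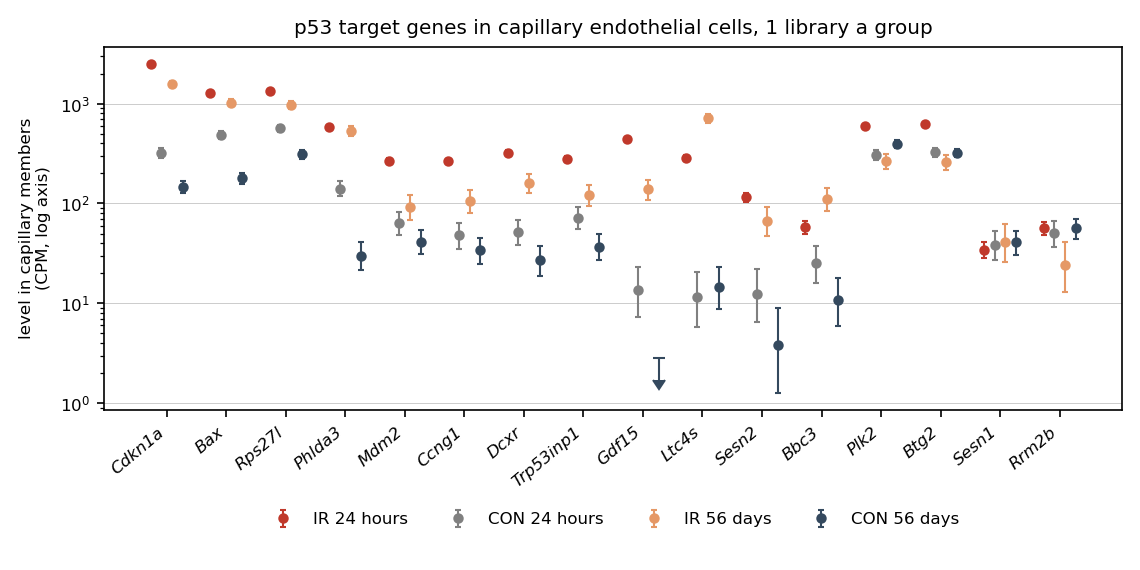
Levels of p53 targets in capillary members of each library, in CPM on a log axis with 95% Poisson intervals for counting error and arrows for upper limits at 0 UMIs. Cdkn1a stood at 2466 CPM in IR and 319.7 CPM in CON at 24 hours, and at 1578 CPM in IR and 147 CPM in CON at 56 days.

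Over the list of 36 p53 targets, 34 were measured at 24 hours. Of these 26 were higher and 0 lower, where 17.6% and 7.00% of all genes were. The median log2 ratio was 1.54 against 0.06 over all measured genes. At 56 days 28 were measured, of which 19 were higher and 1 lower, where 13.6% and 15.7% of all genes were. The median was then 1.47 against -0.01 over all. The lower gene was Rrm2b, a ribonucleotide reductase subunit, at 56.5 CPM in IR and 50.1 CPM in CON at 24 hours, and 24.3 CPM in IR and 56.2 CPM in CON at 56 days. The 2 genes not measured at 24 hours were Perp and Psrc1, and the measure lets in a gene that is high in 1 of the libraries alone. The list was drawn up with earlier results of these libraries known, so it gives no independent evidence of its direction.

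Among genes that restrain p53 or the cell cycle, Mdm2 had 266 CPM in IR and 63.7 CPM in CON at 24 hours, and 91.5 CPM in IR and 41.6 CPM in CON at 56 days. Its ratio was 4.17 (3.22 to 5.50) at 24 hours and 2.20 (1.46 to 3.30) at 56 days. Ccng1, which encodes cyclin G1, had 263 CPM in IR and 48.1 CPM in CON at 24 hours, and 106 CPM in IR and 33.9 CPM in CON at 56 days, with ratios of 5.48 (4.07 to 7.54) at 24 hours and 3.14 (2.08 to 4.77) at 56 days. The IR level of both genes was thus lower at 56 days than at 24 hours while it still stood above CON.

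Phlda3, a repressor of Akt signalling, had 578 CPM in IR and 141 CPM in CON at 24 hours, and 530.3 CPM in IR and 30.0 CPM in CON at 56 days. The ratios were 4.10 (3.44 to 4.91) at 24 hours and 17.7 (12.6 to 25.4) at 56 days. Its IR levels were close at the 2 times, and the larger 56 day ratio went with the low 56 day CON level. Bax, the mitochondrial effector of apoptosis, showed the same order of levels, with 1282 CPM in IR and 486 CPM in CON at 24 hours, and 1021 CPM in IR and 178 CPM in CON at 56 days. The Bax ratios were 2.64 (2.40 to 2.91) at 24 hours and 5.74 (4.92 to 6.73) at 56 days. Bbc3, which encodes the BH3-only protein PUMA, had 57.7 CPM in IR and 25.1 CPM in CON at 24 hours, and 110.2 CPM in IR and 10.8 CPM in CON at 56 days, with ratios of 2.30 (1.50 to 3.68) at 24 hours and 10.2 (5.64 to 19.8) at 56 days. Pmaip1, which encodes the BH3-only protein NOXA, had 38 UMIs in IR and 0 in CON at 24 hours and 3 and 0 at 56 days, so that at 24 hours it was at least 3.66-fold higher against a floor of 3 UMIs per library. Aen, an apoptosis-enhancing nuclease, had 131 CPM in IR and 27.2 CPM in CON at 24 hours, and 82.2 CPM in IR and 20.8 CPM in CON at 56 days.

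Gdf15, whose protein is a secreted stress hormone related to TGF-beta, had 441 CPM in IR members at 24 hours, in 426 of 910 cells. In CON its 13 UMIs (13.6 CPM) all lay in 1 cell. At 56 days it had 138 CPM in IR, in 31 of 168 cells, and 0 UMIs in CON, which made it at least 59.8-fold higher against a floor of 3 UMIs. Nearly all Gdf15 RNA of the members was therefore in irradiated limbs. Ltc4s, which encodes leukotriene C4 synthase, behaved otherwise over time: it had 284 CPM in IR and 11.5 CPM in CON at 24 hours, and 709 CPM in IR and 14.6 CPM in CON at 56 days, so its IR level was higher at 56 days than at 24 hours. The ratios of Ltc4s were 24.7 (13.8 to 49.7) at 24 hours and 48.5 (30.6 to 81.5) at 56 days.

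Sesn2, an inhibitor of mTORC1 signalling, had 115 CPM in IR and 12.5 CPM in CON at 24 hours, and 67.2 CPM in IR and 3.85 CPM in CON at 56 days, with ratios of 9.15 (5.18 to 17.9) at 24 hours and 17.5 (6.83 to 57.0) at 56 days. Its relative Sesn1 was close to CON, at 0.883 (0.604 to 1.32) at 24 hours and 1.01 (0.583 to 1.68) at 56 days. Other targets were higher at both times. Zmat3, which encodes an RNA-binding protein, had ratios of 3.52 (2.32 to 5.58) at 24 hours and 7.43 (4.15 to 14.0) at 56 days. Eda2r, a receptor gene of the TNF family, had 3.49 (2.51 to 5.00) at 24 hours and 3.08 (1.79 to 5.36) at 56 days, and Trp53inp1, which encodes a stress-induced nuclear protein, had 3.89 (3.05 to 5.05) at 24 hours and 3.28 (2.23 to 4.87) at 56 days. Dcxr, a dicarbonyl and xylulose reductase, had 6.17 (4.65 to 8.37) at 24 hours and 5.96 (3.98 to 9.10) at 56 days. Rps27l, a ribosomal protein paralog, had 2.37 (2.16 to 2.59) at 24 hours and 3.10 (2.71 to 3.54) at 56 days, but reads of Rps27l may be shared with its near copy Rps27, so its values are uncertain.

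Some p53 targets were not higher at both times or could not be measured at 56 days. Plk2 and Btg2, a polo-like kinase and an anti-proliferative factor, were higher at 24 hours, by 1.92 (1.70 to 2.18) and 1.92 (1.71 to 2.18), but not at 56 days, with 0.670 (0.553 to 0.808) and 0.805 (0.659 to 0.978). Fas, a death receptor, had ratios of 1.11 (0.826 to 1.51) at 24 hours and 0.793 (0.526 to 1.17) at 56 days. Ckap2, a spindle protein gene, had 256 UMIs in IR and 1 in CON at 24 hours, a ratio of 74.0 (13.2 to 2934), and 16 and 0 UMIs at 56 days. After members were thinned to 1000 UMIs, the 24 hour log2 ratio of Bbc3 was 0.44 against 1.18 before, which is under 1.5-fold, and those of Ccng1, Eda2r, Gdf15 and Ckap2 were 1.77 against 2.44, 1.19 against 1.79, 4.29 against 4.97 and 3.67 against 5.63. Dcxr at 56 days was 1.96 after thinning and 2.56 before. With cells weighted equally Sesn2 was 2.49 against 3.14 at 24 hours and 3.27 against 4.01 at 56 days, and with no interferon limit Bbc3 at 56 days was 2.67 against 3.32.

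The Cdkn1a signal was spread over the cells. After each member was thinned to 1000 UMIs, which left out 68 IR and 25 CON members at 24 hours and 23 IR and 55 CON members at 56 days, Cdkn1a was found in 84.8% (82.2 to 87.2) of IR and 24.4% (19.2 to 30.3) of CON members at 24 hours. At 56 days it was found in 71.0% (62.9 to 78.3) of IR and 11.9% (8.84 to 15.5) of CON members. Without thinning the shares were 94.6% and 41.7%, then 78.6% and 23.8%. B cells of the same libraries were thinned in the same way. Their shares, IR then CON, were 1.82% of 55 and 0.588% of 170 cells at 24 hours, and 0% of 48 and 0% of 44 at 56 days. Their median depths were 3088, 3110, 2909.5 and 3168 UMIs in the same order. These B cells were chosen to hold 0 endothelial UMIs, so here and below they may understate background RNA in droplets. All 4 member shares stood above the B cell share of their library. The median thinned member had 2 Cdkn1a UMIs in IR and 0 in CON at 24 hours, and 1 in IR and 0 in CON at 56 days. Members with 5 or more made up 16.0% of IR and 0.407% of CON members at 24 hours, and 8.28% and 0% at 56 days.

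**Figure D2:**
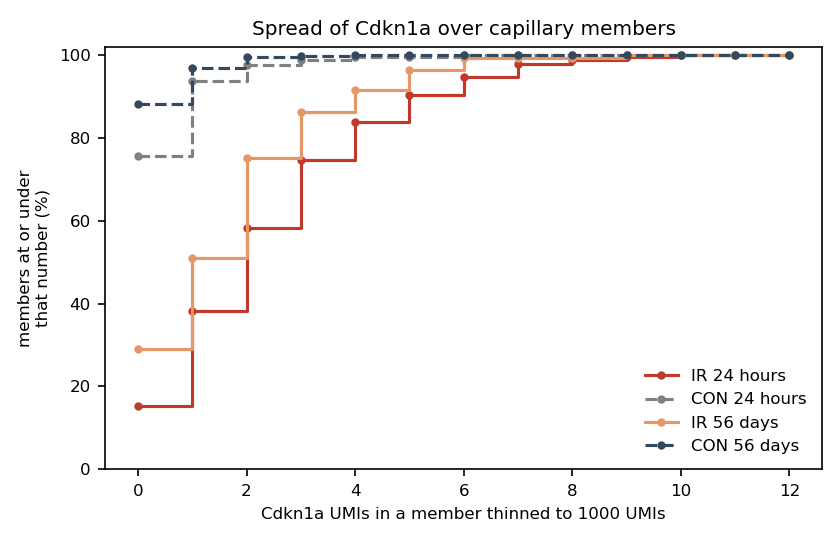
Cumulative share of capillary members, in percent, against their Cdkn1a UMIs after each cell was thinned to 1000 UMIs, with 1 line per library. The IR lines lie to the right of the CON lines at both times, and 16.0% of IR members at 24 hours had 5 UMIs or more, against 0.407% of CON members.

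Other targets were found in fewer cells at this depth. Ltc4s was found in 21.4% of IR and 1.22% of CON members at 24 hours, and in 42.8% of IR and 0.517% of CON members at 56 days. Gdf15 was found in 25.2% of IR members and 0.407% of CON members at 24 hours, and in 12.4% of IR and 0% of CON members at 56 days, where 0 of 387 CON cells carried a UMI. B cells had 0% for both genes in all 4 libraries.

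The Cdkn1a difference was not confined to capillary members. At 24 hours its ratio of IR to CON was 7.53 (6.17 to 9.29) in cells that met the arterial limit, 8.78 (6.76 to 11.6) in those that met the venous limit and 5.64 (4.52 to 7.14) in those that met the tip-cell limit, against the 7.72 of the members. At 56 days these ratios were 5.54 (4.61 to 6.70), 13.7 (8.73 to 22.5) and 12.7 (7.97 to 21.5), against 10.7 in the members. In B cells, Cdkn1a had 3 UMIs in IR and 5 in CON at 24 hours. Over the p53 list 22 of 29 measured genes were higher in arterial cells, 22 of 29 in venous cells and 25 of 31 in tip cells at 24 hours, where 20.3%, 24.3% and 27.5% of all genes were. In B cells 2 of 12 were higher and 6 lower at 24 hours, where 21.5% and 16.0% of all genes were. At 56 days 17 of 26 were higher in arterial, 12 of 18 in venous and 21 of 26 in tip cells. Over all genes 14.2%, 18.4% and 22.1% were higher in these classes. In B cells 2 of 7 were higher and 1 lower at 56 days, where 18.8% and 18.4% of all genes were. A difference between these classes was not tested.

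Capillary identity genes moved less than p53 targets. Of 21 listed genes, all measured, 0 were higher and 4 lower in IR members at 24 hours, where 17.6% and 7.00% of all genes were, with a median log2 ratio of -0.37 against 0.06 over all genes. The 4 lower genes were Car4, Timp4, the potassium channel gene Kcna5 and the aquaglyceroporin gene Aqp7. At 56 days 2 were higher and 2 lower, where 13.6% and 15.7% of all genes were, so neither count stood above that of all genes, and the median was 0.04 against -0.01. The higher genes were the surface antigen gene Ly6a, with 1.57 (1.46 to 1.68), and BC028528, with 1.63 (1.26 to 2.12), and the lower genes were Car4 and the adhesion receptor gene Adgrl4, with 0.573 (0.511 to 0.640). At 56 days the calls of Ly6a, BC028528 and Adgrl4 each ended under an alternative, at log2 ratios of 0.57 with median-of-ratios scaling, 0.58 without the deepest 5% of members and -0.47 after thinning.

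Car4 had 81.5 CPM in IR and 288 CPM in CON at 24 hours, and 46.7 CPM in IR and 174 CPM in CON at 56 days. Its ratio was 0.283 (0.238 to 0.336) at 24 hours and 0.268 (0.170 to 0.406) at 56 days, so it stood below CON at both times. Timp4 had 426 CPM in IR and 1232 CPM in CON at 24 hours, and 1174 CPM in IR and 1296 CPM in CON at 56 days. It was lower at 24 hours, with 0.345 (0.320 to 0.374), and near CON at 56 days, with 0.906 (0.825 to 0.994). Aqp7, which passes glycerol and water, had 178 CPM in IR and 419 CPM in CON at 24 hours, and 353 CPM in IR and 340.2 CPM in CON at 56 days, and Kcna5 had 48.9 CPM in IR and 123 CPM in CON at 24 hours, and 105 CPM in IR and 70.8 CPM in CON at 56 days. At 24 hours the Aqp7 and Kcna5 ratios were 0.426 (0.375 to 0.485) and 0.397 (0.311 to 0.507), and at 56 days 1.04 (0.870 to 1.23) and 1.48 (1.04 to 2.08). Of the 4 genes that were low at 24 hours, 3 were thus within 1.5-fold of CON at 56 days and Car4 was not. Among thinned members Car4 was found in 7.36% of IR and 23.2% of CON cells at 24 hours and in 2.76% of IR and 16.5% of CON cells at 56 days, and Timp4 in 28.4% and 55.7%, then 46.9% and 60.2%. B cells had 0% for Car4 and for Timp4 in all 4 libraries. Fewer cells with the RNA and less RNA per cell are both contained in a summed level.

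**Figure D3:**
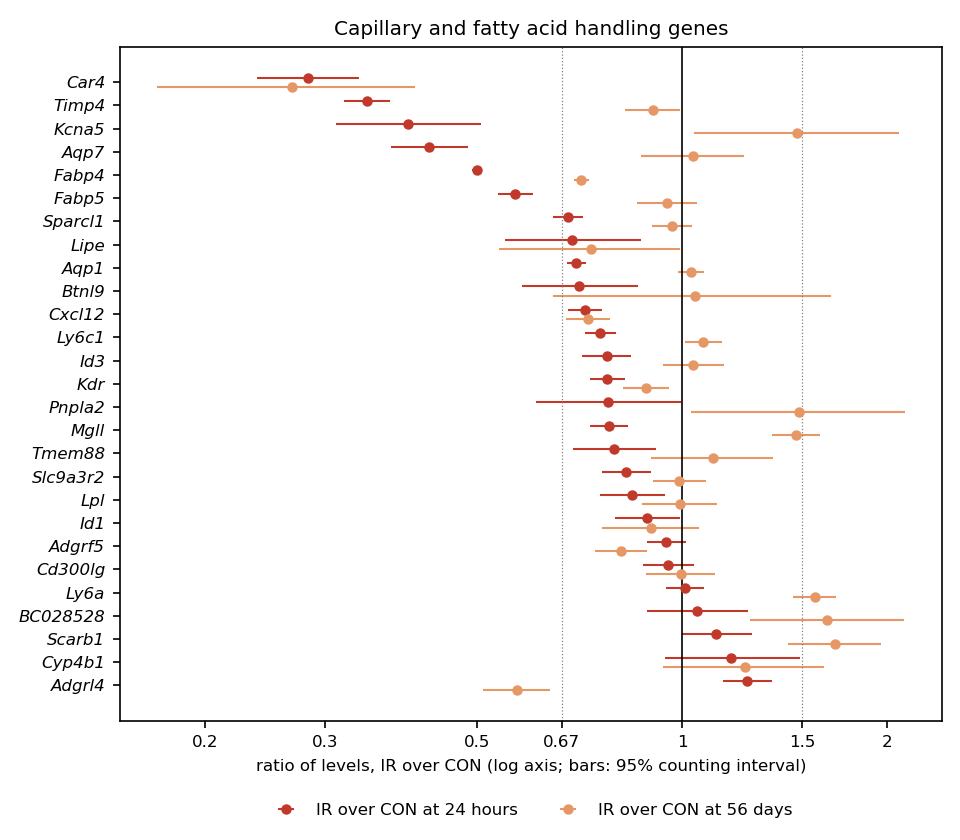
Ratio of IR to CON for capillary identity and lipid genes in members at 24 hours and 56 days, on a log axis with 95% intervals for counting error. Car4 lay at 0.283 and 0.268 at the 2 times, whereas Timp4 lay at 0.345 at 24 hours and at 0.906 at 56 days.

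Arterial cells also had less Car4 and Timp4 in IR, while values for venous and tip cells are not given here. In arterial cells Car4 had a ratio of 0.303 (0.196 to 0.465) at 24 hours and 0.185 (0.0943 to 0.336) at 56 days, and Timp4 one of 0.380 (0.316 to 0.457) and 0.639 (0.538 to 0.756). The part of free RNA from capillary cells in these counts was not tested.

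Kdr, the main VEGF receptor of endothelium, had 1261 CPM in IR and 1624 CPM in CON at 24 hours, and 1699 CPM in IR and 1917 CPM in CON at 56 days, with ratios of 0.776 (0.732 to 0.824) at 24 hours and 0.886 (0.820 to 0.956) at 56 days. The water channel gene Aqp1 had 3792 CPM in IR and 5422 CPM in CON at 24 hours, and 5243 CPM in IR and 5086 CPM in CON at 56 days. Cd300lg, a surface glycoprotein of capillaries, differed little, with ratios of 0.955 (0.876 to 1.04) at 24 hours and 0.997 (0.887 to 1.12) at 56 days. In all, 17 of the 21 identity genes were within 1.5-fold of CON at 24 hours, and 17 at 56 days.

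Fabp4, the cytoplasmic fatty acid binding protein and among the most abundant RNAs of these cells, had 14027 CPM in IR and 28055 CPM in CON at 24 hours, and 14776 CPM in IR and 20769.7 CPM in CON at 56 days. Its ratio was 0.50 (0.493 to 0.508) at 24 hours and 0.711 (0.694 to 0.730) at 56 days. It was below CON in both IR libraries, and past 1.5-fold at 24 hours alone. The median thinned member had 12 Fabp4 UMIs in IR and 24 in CON at 24 hours, and 13 in IR and 19 in CON at 56 days, and 1.82% to 3.53% of B cells carried a Fabp4 UMI over the 4 libraries. Fabp5, its relative, had 972 CPM in IR and 1706 CPM in CON at 24 hours, and 978 CPM in IR and 1028 CPM in CON at 56 days, with ratios of 0.570 (0.537 to 0.605) at 24 hours and 0.951 (0.858 to 1.05) at 56 days. Of 18 genes of fatty acid uptake and storage 3 of 16 measured were higher and 2 lower at 24 hours. Over all genes 17.6% were higher and 7.00% lower. At 56 days 3 of 12 were higher and 1 lower, where 13.6% and 15.7% of all genes were. Slc27a3, an acyl-CoA synthetase of the transporter family, was higher at both times, with ratios of 3.14 (1.81 to 5.88) at 24 hours and 2.43 (1.24 to 4.75) at 56 days. Scarb1, the HDL receptor, had ratios of 1.12 (0.999 to 1.27) at 24 hours and 1.67 (1.43 to 1.96) at 56 days.

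The regulators of lipid handling had a median log2 ratio of -0.42 at 24 hours, when 3 of 8 measured genes were lower and 0 higher, where 7.00% and 17.6% of all genes were. Summed markers of adipocytes, which also express Fabp4, Pparg and Aqp7, moved the same way at 24 hours. They had 36 UMIs (10.9 CPM) in IR and 29 (30.3 CPM) in CON. At 56 days they had 1 UMI (1.87 CPM) in IR and 2 (1.54 CPM) in CON, too few for a direction. Of those 5 markers Cfd carried 25 UMIs in IR and 25 in CON at 24 hours, a ratio of 0.289 (0.159 to 0.525), while Adipoq and Plin1 had 2 and 2 in IR and 1 and 0 in CON. The part of adipocyte RNA in the lipid genes was not tested. Pparg, the nuclear receptor that binds fatty acids, had 45.0 CPM in IR and 82.5 CPM in CON at 24 hours, and 39.2 CPM in IR and 59.3 CPM in CON at 56 days. Its ratio was 0.545 (0.412 to 0.726) at 24 hours and 0.662 (0.388 to 1.08) at 56 days, but the 56 day direction turned when members were thinned to 1000 UMIs (log2 ratio 0.29). Its partner Rxra had 27.2 CPM in IR and 52.2 CPM in CON at 24 hours, and 37.3 CPM in IR and 46.2 CPM in CON at 56 days, with ratios of 0.520 (0.364 to 0.751) at 24 hours and 0.809 (0.462 to 1.36) at 56 days. Meox2 and Tcf15, the transcription factor pair of the capillary transport programme, stayed within 1.5-fold: Meox2 had 419 CPM in IR and 304 CPM in CON at 24 hours, and 360.3 CPM in IR and 308 CPM in CON at 56 days, and Tcf15 had 1139 CPM in IR and 1448 CPM in CON at 24 hours, and 1473 CPM in IR and 1882 CPM in CON at 56 days. Srebf1, a regulator of lipid synthesis, had ratios of 0.964 (0.561 to 1.73) at 24 hours and 2.75 (1.29 to 5.91) at 56 days.

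Genes of energy metabolism were mostly within 1.5-fold. Of all genes 17.6% were higher and 7.00% lower at 24 hours, and 13.6% higher and 15.7% lower at 56 days. For fatty acid oxidation 0 of 12 measured genes were higher and 0 lower at 24 hours, and 0 of 10 were higher and 2 lower at 56 days. For glycolysis 0 of 13 were higher and 2 lower at 24 hours, and 3 of 12 were higher and 1 lower at 56 days. Of solute transporters 0 of 11 and 0 of 9 were higher, and 2 and 2 lower.

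Cell cycle genes apart from Cdkn1a showed no single direction. Of 17 regulators 4 of 13 measured were higher and 2 lower at 24 hours, where 17.6% and 7.00% of all genes were. At 56 days 3 of 11 were higher and 3 lower, where 13.6% and 15.7% were. Ccnd1, which encodes cyclin D1, had 482 CPM in IR and 287 CPM in CON at 24 hours, and 743 CPM in IR and 243 CPM in CON at 56 days, with ratios of 1.68 (1.47 to 1.91) at 24 hours and 3.06 (2.63 to 3.55) at 56 days. Ccnd2 was higher at 56 days, with 2.75 (2.18 to 3.48), and within 1.5-fold at 24 hours, with 1.42 (1.18 to 1.72). Cdkn1c, which encodes the inhibitor p57 and is known from quiescent cells, had 375 CPM in IR and 627 CPM in CON at 24 hours, and 441 CPM in IR and 674 CPM in CON at 56 days, with ratios of 0.599 (0.543 to 0.661) at 24 hours and 0.653 (0.564 to 0.755) at 56 days. Cdkn2a, the locus of p16 and p19, had 1 UMI over the members of all 4 libraries. Of 23 genes of cell division 7 were measured at either time, as few members carried their RNA. The 56 day log2 ratio of Cdkn1c was -0.55 without cells of over 2 other-lineage UMIs, just short of 1.5-fold.

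Clock genes differed between limbs at 24 hours more than at 56 days. These genes form a feedback loop of about a day, in which CLOCK and BMAL1 (encoded by Arntl) bind the E-box CACGTG and drive their own repressors. The times of day at which limbs were taken are not given in the sources used here, and CON limbs were the contralateral limbs of irradiated mice. Ciart and Tef are shown as examples of genes that were higher in IR at 24 hours and whose promoters hold the E-box. Ciart encodes a repressor of the loop and Tef an output transcription factor. Cry1 also met both points, with a 24 hour log2 ratio of 0.97, or 0.46 without cells of over 2 other-lineage UMIs. The windows are RefSeq's for GRCm38.p6, chr3:95882179-95882478 on the minus strand for Ciart and chr15:81802423-81802722 on the plus strand for Tef, 5′ to 3′, with each CACGTG in capitals.
Ciart: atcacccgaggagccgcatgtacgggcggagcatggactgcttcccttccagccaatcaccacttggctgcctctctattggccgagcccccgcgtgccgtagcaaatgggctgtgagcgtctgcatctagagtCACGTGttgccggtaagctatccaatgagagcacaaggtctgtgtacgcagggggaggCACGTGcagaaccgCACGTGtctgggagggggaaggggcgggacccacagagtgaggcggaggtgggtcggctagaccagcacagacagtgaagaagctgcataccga
Tef: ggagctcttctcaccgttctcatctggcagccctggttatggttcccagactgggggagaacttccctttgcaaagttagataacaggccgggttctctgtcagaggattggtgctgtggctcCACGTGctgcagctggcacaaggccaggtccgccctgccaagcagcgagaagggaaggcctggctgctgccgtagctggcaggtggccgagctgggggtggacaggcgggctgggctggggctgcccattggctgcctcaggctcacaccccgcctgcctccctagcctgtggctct

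Ciart held 3 E-boxes, at 116, 58 and 44 bases before the annotated start, and Tef 1, at 127 bases before it. CACGTG, which reads the same on both strands, was present in 7.15% of 32851 windows. Among 16 clock genes 14 had a window, and 5 of them held it: Bhlhe41, Ciart, Cry1, Per1 and Tef. Among the 26 p53 targets with a window 6 held it.

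At 24 hours 11 of 14 measured clock genes were higher and 1 lower in IR, with a median log2 ratio of 1.28, where 17.6% and 7.00% of all genes were. At 56 days 4 of 10 were higher and 1 lower, with a median of 0.11, where 13.6% and 15.7% of all genes were. Dbp, an output transcription factor of the loop, had 234 CPM in IR and 49.1 CPM in CON at 24 hours, and 31.7 CPM in IR and 9.24 CPM in CON at 56 days. Its ratio was 4.76 (3.54 to 6.53) at 24 hours and 3.44 (1.55 to 7.89) at 56 days. Dbp was higher in IR at both times, but its level in IR at 56 days was below that of CON at 24 hours. Tef had 134 CPM in IR and 43.9 CPM in CON at 24 hours, and 35.5 CPM in IR and 20.8 CPM in CON at 56 days, with ratios of 3.06 (2.22 to 4.30) at 24 hours and 1.71 (0.897 to 3.19) at 56 days. Hlf, a relative of both, had 47 UMIs in IR and 0 in CON at 24 hours, at least 4.53-fold higher against a floor of 3 UMIs.

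Repressors of the loop had the same direction at 24 hours except Per1. Ciart had 51 UMIs in IR and 4 in CON, a ratio of 3.69 (1.35 to 14.0). Per3 had a ratio of 2.55 (1.79 to 3.75), Per2 of 5.64 (1.46 to 48.2), Nr1d1, which encodes the repressor REV-ERB alpha, of 1.65 (1.29 to 2.15), Nr1d2 of 2.37 (1.78 to 3.23) and Bhlhe40 of 3.00 (1.93 to 4.88). Per1 had 0.959 (0.662 to 1.42). Arntl, in the activating arm, was the lower gene, with 5.74 CPM in IR and 16.7 CPM in CON, a ratio of 0.343 (0.167 to 0.714) from 19 and 16 UMIs. At 56 days the lower gene was Clock, with 0.537 (0.357 to 0.788), and Nr1d1 was higher, with 2.09 (1.32 to 3.31). Other endothelium had more clock RNA in IR at 24 hours as well, with 9 of 11 measured genes higher in arterial, 9 of 9 in venous and 7 of 9 in tip cells. Over all genes 20.3%, 24.3% and 27.5% were higher in these classes. After thinning the 24 hour log2 ratio of Nr1d1 was 0.35, under 1.5-fold. Ciart was 2.43 against 1.73 with cells weighted equally, and Per2 1.58 against 2.19 without cells of over 2 other-lineage UMIs.

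**Figure D4:**
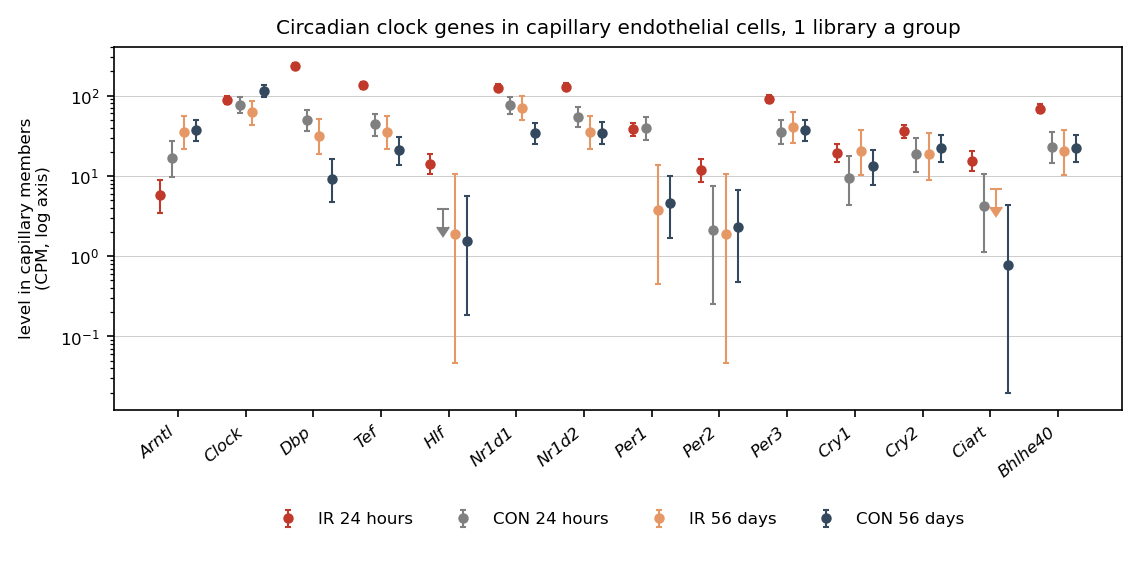
Levels of clock genes in capillary members of each library, in CPM on a log axis with 95% intervals for counting error and arrows for upper limits at 0 UMIs. Dbp stood at 234 CPM in IR and 49.1 CPM in CON at 24 hours, and at 31.7 CPM in IR and 9.24 CPM in CON at 56 days.

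Several genes that act on blood clotting were higher in IR. Of 13 anticoagulant and haemostatic genes 4 of 10 measured were higher and 1 lower at 24 hours, where 17.6% and 7.00% of all genes were, and 4 of 9 were higher and 0 lower at 56 days, where 13.6% and 15.7% were. Gas6, the ligand of the TAM receptor kinases, had 1313 CPM in IR and 523 CPM in CON at 24 hours, and 1004 CPM in IR and 337 CPM in CON at 56 days, with ratios of 2.51 (2.29 to 2.76) at 24 hours and 2.98 (2.62 to 3.39) at 56 days. It was found in 70.0% of thinned IR and 42.3% of CON members at 24 hours, and in 61.4% and 27.6% at 56 days, with 0% of B cells in all 4 libraries. Procr, the endothelial protein C receptor, had 35.0 CPM in IR and 14.6 CPM in CON at 24 hours, and 26.1 CPM in IR and 10.8 CPM in CON at 56 days, with ratios of 2.40 (1.37 to 4.52) at 24 hours and 2.43 (1.07 to 5.49) at 56 days. Plau, which encodes urokinase, had 4.43 (1.96 to 12.4) at 24 hours and 1.52 (0.739 to 3.01) at 56 days, and these 3 genes were past 1.5-fold at both times. Pros1, which encodes the anticoagulant protein S, was past it at 24 hours and just under it at 56 days, with ratios of 1.86 (1.51 to 2.32) at 24 hours and 1.50 (1.15 to 1.94) at 56 days. Anxa2, which encodes a membrane scaffold for plasmin formation, was past it at 56 days, with 1.51 (1.33 to 1.70), and S100a10, its partner, was the lower gene at 24 hours, with 0.634 (0.573 to 0.701). The Plau log2 ratio was under 1.5-fold in alternatives at both times, at 0.34 after thinning at 24 hours and at 0.36 with Gpihbp1 alone in the rule at 56 days, and so were, after thinning, Anxa2 at 56 days, at 0.49, and S100a10 at 24 hours, at -0.58. Procr at 24 hours was 2.05 without cells of over 2 other-lineage UMIs, against 1.22.

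Barrier genes are given beside all genes, of which 17.6% were higher and 7.00% lower at 24 hours, and 13.6% and 15.7% at 56 days. Of 16 measured junction genes 0 were higher and 2 lower at 24 hours, and 1 was higher and 3 lower at 56 days. The 3 lower genes were the scaffold Tjp1, with 0.547 (0.472 to 0.632), and the adhesion molecules Jam2, with 0.572 (0.504 to 0.648), and Jam3, with 0.576 (0.403 to 0.807). Of 9 genes of caveolae and diaphragms 2 were higher and 1 lower at 24 hours, and 2 were higher and 0 lower at 56 days. Plvap, which encodes the protein of endothelial diaphragms, had 78.5 CPM in IR and 46.0 CPM in CON at 24 hours, and 101 CPM in IR and 30.0 CPM in CON at 56 days. Its ratios were 1.71 (1.24 to 2.41) at 24 hours and 3.36 (2.18 to 5.21) at 56 days, but in IR at 56 days it was found in 11 cells and 1 of them held 38.9% of its UMIs, and the log2 ratio was 0.60 after thinning against 1.74 before. In arterial cells Plvap was lower in IR, with 0.230 (0.161 to 0.326) and 0.316 (0.227 to 0.434). Without the deepest 5% of members Plvap at 24 hours was at a log2 ratio of 0.47, under 1.5-fold, and after thinning Jam3 at 56 days was at -0.54.

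Among 14 genes of shear stress and vascular tone measured at 24 hours 2 were higher and 1 lower, where 17.6% and 7.00% of all genes were. Among 13 at 56 days 3 were higher and 3 lower, where 13.6% and 15.7% were. Edn1, which encodes the vasoconstrictor endothelin-1, had 10.9 CPM in IR and 6.27 CPM in CON at 24 hours, and 69.1 CPM in IR and 31.6 CPM in CON at 56 days, with ratios of 1.73 (0.724 to 5.04) at 24 hours and 2.19 (1.36 to 3.50) at 56 days. Apold1, an early response gene of endothelium, had ratios of 1.61 (1.23 to 2.12) at 24 hours and 2.43 (1.24 to 4.75) at 56 days. The receptor genes Ednrb and Calcrl were lower at 56 days, with 0.528 (0.335 to 0.806) and 0.629 (0.469 to 0.833). Klf2, the shear-responsive transcription factor, had 789 CPM in IR and 858 CPM in CON at 24 hours, and 829 CPM in IR and 607 CPM in CON at 56 days, with ratios of 0.920 (0.851 to 0.997) at 24 hours and 1.36 (1.21 to 1.54) at 56 days. The 24 hour log2 ratios of Edn1 and Apold1 were 0.05 and 0.36 without cells of over 2 other-lineage UMIs, and the 56 day ratio of Calcrl was -0.28 after thinning, all under 1.5-fold.

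Genes of cell death and survival outside the p53 list showed 4 of 16 higher and 0 lower at 24 hours, and 4 of 15 higher and 3 lower at 56 days. No gene stood on both lists. Beside these counts, and those of repair and antioxidant genes, 17.6% of all genes were higher and 7.00% lower at 24 hours. At 56 days 13.6% of all genes were higher and 15.7% lower. Apaf1, the scaffold of the apoptosome, had 85.5 CPM in IR and 25.1 CPM in CON at 24 hours, and 26.1 CPM in IR and 25.4 CPM in CON at 56 days, with ratios of 3.41 (2.24 to 5.41) at 24 hours and 1.03 (0.509 to 1.98) at 56 days. Bcl2l1, an inhibitor of apoptosis, had 84.0 CPM in IR and 47.0 CPM in CON at 24 hours, and 78.4 CPM in IR and 50.8 CPM in CON at 56 days, with ratios of 1.79 (1.30 to 2.50) at 24 hours and 1.54 (1.02 to 2.31) at 56 days. The 56 day call of Bcl2l1 ended with cells weighted equally, at a log2 ratio of 0.45. Of 13 measured genes of DNA break sensing and repair 4 were higher and 1 lower at 24 hours, and of 10 at 56 days 0 were higher and 2 lower. Of antioxidant genes 4 of 15 and 2 of 12 were higher and 0 lower at either time, and the 24 hour list median of 0.13 became -0.19 when cells were weighted equally.

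Inflammatory genes gave a mixed picture. For their lists, the shares over all genes were 17.6% higher and 7.00% lower at 24 hours, and 13.6% and 15.7% at 56 days. Icam1, the leukocyte adhesion molecule, was higher at both times, with 76.1 CPM in IR and 34.5 CPM in CON at 24 hours, and 57.9 CPM in IR and 21.6 CPM in CON at 56 days and ratios of 2.21 (1.53 to 3.28) at 24 hours and 2.69 (1.56 to 4.65) at 56 days, as 1 of 2 higher genes among 14 measured at 24 hours and 13 at 56 days in its list of leukocyte adhesion and cytokine genes. Il1r1, the interleukin-1 receptor, was lower at 56 days, with 0.353 (0.191 to 0.610). For genes of the interferon-gamma response 0 of 15 measured were higher at either time and 6 and 5 were lower, with medians of -0.43 and -0.45. The 56 day median turned to 0.11 when members were thinned. The interferon limit of the rule may shape this list too. With no such limit the 56 day log2 ratios of Gbp5, Gbp6 and Cd274 were -0.36, -0.44 and -0.43, under 1.5-fold. Tgtp1 then had -0.75 against -1.89, and Tgtp2 stayed at -1.86 or lower in every alternative. For type I interferon genes the rule left out the strongest expressers, so their list is a description: 1 of 21 was higher and 4 lower at 24 hours, and 5 of 19 were higher and 1 lower at 56 days, among them Irf7, with 2.63 (1.74 to 3.97), Isg15, with 2.16 (1.55 to 3.00), and Oasl2, with 1.89 (1.11 to 3.18). With no interferon limit Irf7 and Isg15 at 56 days had log2 ratios of 2.17 against 1.39 and 1.92 against 1.11, and after thinning Il1r1 had -2.33 against -1.46.

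MHC class I and immunoproteasome genes present peptides to CD8 T cells. Their median log2 ratio was -0.37 at 24 hours, with 0 of 16 higher and 2 lower, where 17.6% and 7.00% of all genes were. The median was 0.38 at 56 days, with 4 higher and 1 lower, where 13.6% and 15.7% of all genes were. The higher genes were H2-K1, with 1.57 (1.46 to 1.69), H2-D1, with 1.59 (1.49 to 1.69), H2-Q7, with 1.51 (1.22 to 1.86), and their regulator Nlrc5, with 2.55 (1.31 to 4.95), and the lower gene was the peptide trimming enzyme Erap1, with 0.478 (0.304 to 0.726). H2-K1 had 715 CPM in IR and 809.6 CPM in CON at 24 hours, and 2209 CPM in IR and 1408 CPM in CON at 56 days. The H2 genes are near copies of each other, as are the Tgtp and Gbp genes, so reads may have been split between them and their values are uncertain. After thinning, H2-K1 and H2-Q7 at 56 days had log2 ratios of 0.56 and 0.28 and were no longer past 1.5-fold, which H2-Q7 also missed in other alternatives.

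Immediate early genes respond within minutes to stress and to dissociation. At 24 hours 3 of 17 were higher and 1 lower, where 17.6% and 7.00% of all genes were. At 56 days 0 of 13 were higher and 5 lower, where 13.6% and 15.7% were. Fos had 429 CPM in IR and 312 CPM in CON at 24 hours, and 13.1 CPM in IR and 99.3 CPM in CON at 56 days, with ratios of 1.37 (1.21 to 1.56) at 24 hours and 0.132 (0.0519 to 0.279) at 56 days. Jun had ratios of 1.03 (0.964 to 1.11) at 24 hours and 0.444 (0.367 to 0.535) at 56 days and Junb of 0.890 (0.809 to 0.980) at 24 hours and 0.660 (0.485 to 0.887) at 56 days. The list median at 56 days was -0.37, and it became 0.24 when members were thinned to 1000 UMIs. Without cells of over 2 other-lineage UMIs the 24 hour log2 ratio of Fos was -0.027. With no interferon limit Fos at 56 days had a log2 ratio of -1.94 against -2.83, and after thinning Junb had -0.19, under 1.5-fold.

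Basement membrane and integrin genes had 1 of 16 higher and 0 lower at 24 hours and 4 of 16 higher and 0 lower at 56 days. Over all genes 17.6% were higher and 7.00% lower at 24 hours, and 13.6% higher and 15.7% lower at 56 days. The 4 were Sparc, a collagen-binding matricellular protein gene, with 4131 CPM in IR and 4799 CPM in CON at 24 hours, and 3615 CPM in IR and 2004 CPM in CON at 56 days and a 56 day ratio of 1.80 (1.70 to 1.91), Hspg2, which encodes perlecan, with 1.55 (1.38 to 1.74), Nid2, which encodes nidogen-2, with 2.19 (1.27 to 3.77), and Col15a1, with 1.53 (1.13 to 2.04). With median-of-ratios scaling Hspg2 and Col15a1 were under 1.5-fold, at log2 ratios of 0.56 and 0.53. The median of the list was -0.04 at 24 hours and 0.29 at 56 days. Of pathway lists, TGF-beta and BMP genes had 2 of 19 and 1 of 18 higher and 1 and 2 lower, Notch genes 2 of 13 and 2 of 12 higher and 0 lower, VEGF and Tie genes 1 of 12 and 1 of 10 higher and 0 and 1 lower, and endothelial transcription factors 0 and 1 of 19 higher and 0 lower. Heat shock genes had 1 and 0 of 10 higher and 0 and 2 lower. Among genes of other vessel types outside the rule 2 of 9 arterial, 1 of 7 venous and 1 of 9 tip-cell genes were higher at 24 hours, and 2 of 8, 2 of 6 and 2 of 9 at 56 days. Of 6 MHC class II genes 1 was measured at 24 hours and 0 at 56 days.

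**Figure D5:**
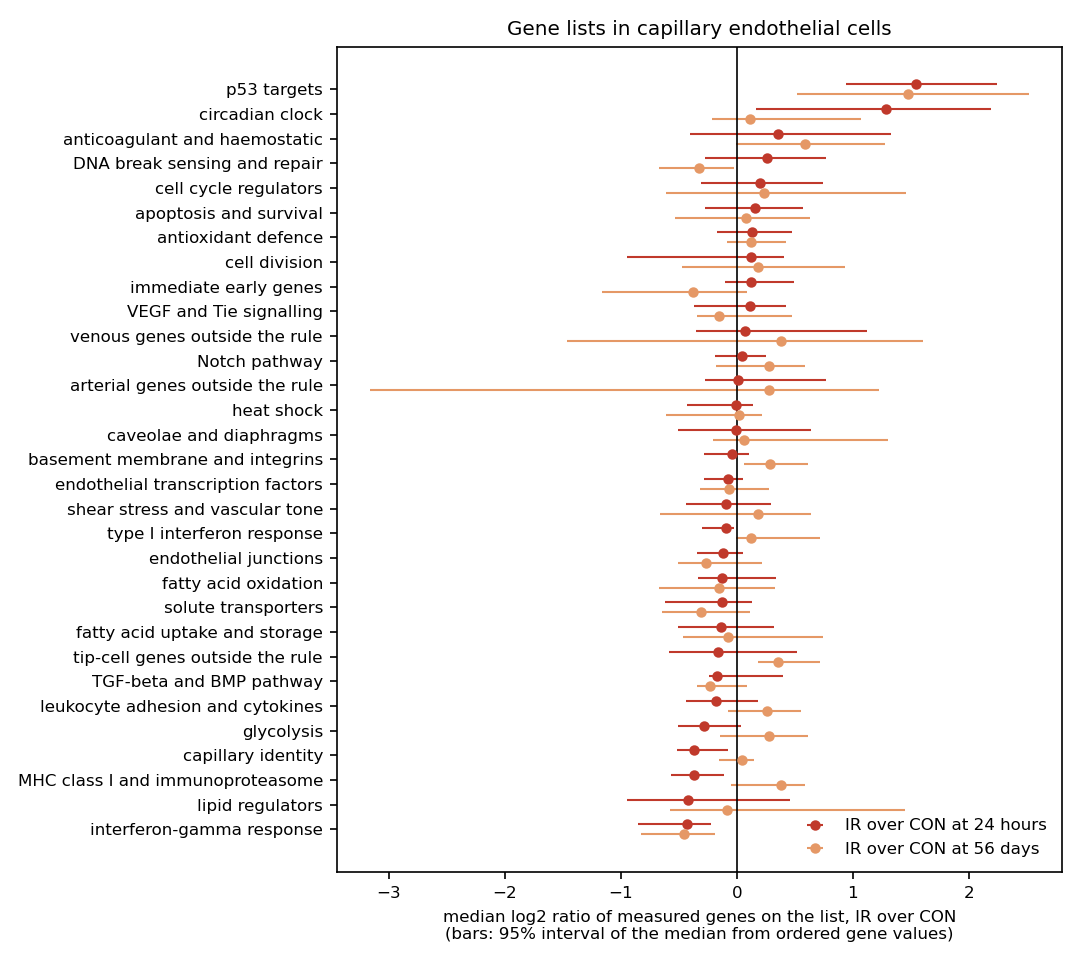
Median log2 ratio of IR to CON of the measured genes of each list in capillary members, with bars for the order-statistic spread among the list's genes, which are not independent replicates. The p53 targets lay highest at both times, at 1.54 and 1.47, and clock genes stood at 1.28 at 24 hours and 0.11 at 56 days.

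Across all genes the overlap between the times was modest; the 2 comparisons share no library. Of 8200 genes measured at both times 228 were higher at both, 21.3% of the 1069 higher at 24 hours and 20.4% of the 1117 higher at 56 days. Lower at both were 91, 19.7% of 463 and 7.10% of 1281. Higher at 24 hours and lower at 56 days were 264, 24.7% and 20.6% of those lists. Over all measured genes 13.6% were higher and 15.7% lower at 56 days, the shares to set beside the percentages of the 24 hour lists. Of the 8200 genes 1069 were higher and 463 lower at 24 hours, to set beside those of the 56 day lists. Where the intervals lay wholly past 1.5-fold at both times, 36 genes were higher, 15 of them on the p53 list, and 3 lower, namely Car4, Fbln2 and Xdh. The genes outside the p53 list included Nav2, Gas6, Ephx1, Lmna, Epha2, Dbp and Icam1, which were picked for naming after their values were seen.

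Fbln2, which encodes the matrix protein fibulin-2, had 130.5 CPM in IR and 342 CPM in CON at 24 hours, and 229.7 CPM in IR and 432 CPM in CON at 56 days, with ratios of 0.382 (0.330 to 0.442) at 24 hours and 0.532 (0.434 to 0.648) at 56 days. Xdh, which encodes xanthine oxidoreductase, had 104 CPM in IR and 191 CPM in CON at 24 hours, and 151 CPM in IR and 359 CPM in CON at 56 days, with ratios of 0.543 (0.453 to 0.654) at 24 hours and 0.422 (0.329 to 0.535) at 56 days. Nav2, which encodes neuron navigator 2, had 107 CPM in IR and 2.09 CPM in CON at 24 hours, and 44.8 CPM in IR and 0.770 CPM in CON at 56 days, with ratios of 51.0 (14.0 to 423) at 24 hours and 58.2 (9.49 to 2394) at 56 days. The CON levels of Nav2 rest on 2 and 1 UMIs.

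When genes were ordered by how far the whole interval lay from 1, the 10 genes furthest higher at 24 hours were Postn, Gdf15, Nav2, Ltc4s, Ckap2, Ncmap, Zfp365, Fmod, Cox6b2 and Gatm. Of these, Postn, Ncmap and Gatm had 92.3%, 71.5% and 77.5% of their IR UMIs in 1 cell, and Fmod had its UMIs in 4 cells. Postn and Fmod are matrix genes of stromal cells and Ncmap is a myelin gene of Schwann cells. Postn, Ncmap, Gatm and Fmod were no longer measured when cells with over 2 UMIs of other lineages were left out. Zfp365, which encodes a DNA damage response protein, had 163 UMIs in 132 IR cells and 1 UMI in CON, a ratio of 47.1 (8.34 to 1872). Cox6b2, a subunit of cytochrome c oxidase, had 290 and 5 UMIs, a ratio of 16.8 (7.10 to 52.0). After thinning the log2 ratio of Cox6b2 was 1.82 against 3.93 before and that of Nav2 4.20 against 5.35.

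The 10 furthest lower at 24 hours were Gnat3, Car4, Timp4, Rtn1, Fbln2, Aqp7, Adh1, Rassf10, Kcna5 and Fabp4. Adh1, an alcohol dehydrogenase that also acts on retinol, had 38.7 CPM in IR and 104 CPM in CON, a ratio of 0.370 (0.283 to 0.486). Gnat3, a G protein subunit, had 5 UMIs in IR and 15 in CON, a ratio of 0.0964 (0.0274 to 0.279), and Rtn1, a reticulon gene, 32 and 35, a ratio of 0.264 (0.158 to 0.440). After thinning Rtn1 had a log2 ratio of -2.62 against -1.92 and Rassf10 -2.44 against -1.79.

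At 56 days the 10 furthest higher were Gdf15, Ltc4s, Phlda3, Nav2, Cdkn1a, Sesn2, Dglucy, Bbc3, Enho and Bax. Dglucy, an enzyme of D-glutamate breakdown, had 20 UMIs in IR and 2 in CON, a ratio of 24.3 (5.89 to 214), and Enho, which encodes the secreted peptide adropin, 27 and 5, a ratio of 13.1 (4.97 to 43.6). The 10 furthest lower were Fmod, Prg4, Thbs4, Fos, Tmem182, Nts, Arsk, Mettl25, Car4 and Syne1. Fmod, Thbs4 and Nts had 52.2%, 49.0% and 57.7% of their CON UMIs in 1 cell. Prg4, which encodes lubricin, had 28.0 CPM in IR and 173 CPM in CON, where 93 cells held it, a ratio of 0.162 (0.0890 to 0.272). Syne1, which encodes the nuclear envelope protein nesprin-1, had 304 CPM in IR and 183 CPM in CON at 24 hours, and 157 CPM in IR and 468 CPM in CON at 56 days. With no interferon limit the log2 ratios of Mettl25, Nts, Arsk, Tmem182 and Nav2 were -1.82 against -4.39, -2.55 against -4.45, -3.33 against -4.39, -3.72 against -4.60 and 4.56 against 5.31. Enho was 4.34 with cells weighted equally, and Ltc4s 7.01 against 5.56 after thinning.

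The CON libraries also differed from each other, which bears on every ratio above. Of 8676 genes 12.5% were higher and 10.7% lower in CON at 56 days than in CON at 24 hours. Of 26 measured p53 targets 1 was higher and 12 lower, with a median log2 ratio of -0.49. The ratio of Cdkn1a was 0.460 (0.382 to 0.553), of Phlda3 0.213 (0.145 to 0.306), of Bax 0.366 (0.311 to 0.429) and of Trp53inp1 0.513 (0.347 to 0.752). Shielded limbs at 24 hours thus held more RNA of these targets than shielded limbs at 56 days. Age, time after irradiation of the other limb and the library itself cannot be told apart here.

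Immediate early genes had 13 of 15 lower and 0 higher in CON at 56 days than in CON at 24 hours, with a median of -1.10. Of all genes 10.7% were lower and 12.5% higher in this comparison. Clock genes had 1 of 11 higher and 5 lower, among them Per1, with 0.116 (0.0402 to 0.277), and Dbp, with 0.188 (0.0908 to 0.360). Genes of the interferon-gamma response had 10 of 16 higher and 2 lower, with a median of 0.81, including Tgtp2, with 10.2 (4.15 to 32.3), and Gbp4, with 2.91 (2.33 to 3.67). H2-Q7, a class I gene, had 185 CPM in CON at 56 days and 26.1 CPM in CON at 24 hours, a ratio of 7.07 (4.68 to 11.1). Cyp26b1, which breaks down retinoic acid, had 779 and 204 CPM, a ratio of 3.82 (3.28 to 4.48), and Rassf9 486 and 95.1 CPM, a ratio of 5.12 (4.10 to 6.45). Basement membrane and integrin genes had 0 of 16 higher and 4 lower. With cells weighted equally the log2 ratio of Tgtp2 was 1.96 against 3.22.

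The furthest higher genes in CON at 56 days by the same ranking were Fmod, Thbs4, Prg4, H2-Q7, Tgtp2, Rassf9, Serpinf1, Cyp26b1, H2-Q6 and Hist1h1e, of which Fmod and Serpinf1 had 52.2% and 51.7% of their UMIs in 1 cell. The furthest lower were Fkbp10, Per1, Phlda3, Car3, Junb, Chst1, Tmem252, Dbp, Apold1 and Arhgdib. Car3, a carbonic anhydrase of muscle fibres, had 10 UMIs in CON at 56 days and 47 in CON at 24 hours. Junb had 164 CPM and 593 CPM in the same order, a ratio of 0.276 (0.235 to 0.324). With cells weighted equally the log2 ratios of Fmod, Thbs4, Serpinf1 and Car3 were 6.45 against 5.09, 5.88 against 4.66, 3.04 against 3.86 and -1.39 against -2.62. Tmem252 was -2.44 against -3.33 with no interferon limit, Chst1 -2.07 against -2.72 without cells of over 2 other-lineage UMIs, and Fkbp10 -4.44 against -3.73 with at least 5 capillary UMIs.

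Set against the other endothelial cells of their own library, members shared a small group of genes that the rule did not use. As the rule chose the cells, these are descriptions. Of 7973 genes 0.351% (28) were at least 1.5-fold higher in members in each of the 4 libraries and 2.18% (174) lower. Aqp1 had ratios of 1.85 in IR and 2.48 in CON at 24 hours, and 2.25 in IR and 2.04 in CON at 56 days. Bmp6, a ligand of the BMP family, had 1.79, 2.19, 2.40 and 2.40 in the same order. Others among the 28 were Coro6, a coronin of the actin skeleton, Car8, a relative of the carbonic anhydrases, Jam3, Adh1, Has3, a hyaluronan synthase, and Dhrs3, a retinal reductase. Tcf15 had 1.34, 1.20, 1.54 and 1.81, Kdr 1.47, 1.50, 1.85 and 1.52, and Fabp4 1.15, 1.20, 1.08 and 1.18. Fabp4 was thus nearly as high in the other endothelial cells as in members in all 4 libraries. Among the 174 lower were the matrix genes Mgp, Fbln5 and Eln, which encodes elastin, Gja4, a connexin gene of arterial endothelium, Lrg1, and Acta2, a smooth muscle actin.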

How the data were processed

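Single-cell RNA sequencing of sorted live mononucleated hindlimb cells used the 10x Genomics 3' version 3 chemistry, per the labels' protocols. The deposited matrices hold UMI counts, made by the authors with Cell Ranger 5.0.0 on mm10, per the submitters' processing notes. They list 32285 genes in already filtered barcodes. Sample titles gave the groups. Each had 1 library of 3 pooled limbs, so no test was made and no p-value computed.

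Member UMIs were summed per library and scaled to the members' total (CPM). Ratios carry exact conditional binomial, levels exact Poisson and shares exact binomial (Clopper-Pearson) intervals, all at 95%, and these cover counting error only. A prior count of 0.5 entered each log2 ratio, and list medians used genes with at least 20 summed UMIs. Where a library had 0 UMIs, a fold was set against a floor of 3 UMIs per library. Thinning drew 1000 UMIs per cell with a fixed seed. B cells had at least 3 UMIs of Cd79a, Cd79b and Ms4a1 and 0 endothelial UMIs. No doublet caller was run and free RNA was not removed; instead an alternative left out cells with over 2 UMIs of other lineages. Pairs of libraries shared at most 3 barcodes, and 0 among members.

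The members and the 41 gene lists, 9 of them of other cell types, were chosen with earlier results of these data known. Genes were named mostly by rule: the 10 furthest in each direction by the interval bound nearest to 1, leading members of many lists, and 12 fixed genes. Several lists were given as counts alone, and some genes were picked for naming after their values were seen. The ranking left out genes of the cell rule, markers of other cell types, and mitochondrial, ribosomal, haemoglobin, immune receptor, predicted and sex-linked genes. Aldoa, whose symbol is repeated in the table, was not used. Promoter windows were RefSeq's for GRCm38.p6 and gene positions GENCODE's for mm10. The scripts, tested on simulated counts, used Python 3.11.15, numpy 2.4.6, scipy 1.17.1, pandas 2.3.3 and matplotlib 3.10.9.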

Additional observations from a re-analysis of the deposited data

Results flagged for a closer look

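Among listed and named genes, 12 were past 1.5-fold in opposite directions at the 2 times in capillary members, with both intervals of the IR to CON ratio clear of 1. With 1 library per group, these differences between times were not tested.

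Fmod had a ratio of 43.65 at 24 hours and of 0 at 56 days, with 0 IR UMIs, Thbs4 37.87 and 0.0476, Serpinf1 35.56 and 0.0836, and Mgp 2.772 and 0.0758. These genes encode matrix or secreted proteins. In IR at 24 hours 1 cell held 49.0% of the Fmod UMIs and 1 cell 73.9% of the Mgp UMIs. In CON at 56 days 1 cell held 52.2% of the Fmod, 49.0% of the Thbs4, 51.7% of the Serpinf1 and 46.9% of the Mgp UMIs. The intervals count UMIs of 1 cell as independent, so they are too narrow for such genes. Mgp was also high in other endothelial cells, at 369 to 902 CPM over the 4 libraries. Summed fibro-adipogenic markers had 927 CPM in IR and 89.8 CPM in CON at 24 hours, and 29.9 CPM in IR and 160.1 CPM in CON at 56 days. At 24 hours Fmod was no longer measured in the alternative without other-lineage cells. For Thbs4, Serpinf1 and Mgp, and for Fmod at 56 days, values from that alternative are not given here. How much of these ratios came from fibro-adipogenic RNA was not tested.

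Among regulators, Syne1, a nuclear envelope gene, had 1.665 at 24 hours and 0.335 at 56 days, Smad4, the shared mediator of TGF-beta and BMP signals, 1.738 and 0.392, Rb1, the retinoblastoma gene, 2.017 and 0.477, and Prkdc, the DNA-dependent protein kinase gene, 2.12 and 0.270. Fosb, an immediate early gene, had 2.221 and 0.255, and Hist1h1e, a linker histone gene, 2.089 and 0.375. The reverse order was found for Irf7, a regulator of the interferon response, with 0.494 and 2.63, and for Mcm6, a replication helicase subunit, with 0.5246 and 1.91.

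The 24 hour calls of 4 of these genes ended in an alternative, at log2 ratios of 0.05 for Mgp and 0.46 for Rb1 after thinning, 0.46 for Prkdc without cells of over 2 other-lineage UMIs and 0.58 for Syne1 with cells weighted equally.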

How the results depend on the processing

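No paired analysis was possible because each group had 1 library, and for the same reason no replicate could be left out. The p53 list median stayed between 1.51 and 1.78 at 24 hours and between 1.26 and 1.64 at 56 days over the alternatives, the clock list between 1.17 and 1.63 and between 0.03 and 0.32, and the Cdkn1a log2 ratio between 2.84 and 2.99 and between 3.32 and 3.50. Scaling by the median of ratios moved the median of all genes by under 0.1.

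Counts of genes past the fold followed their own definitions. Higher and lower counts at 24 hours, 56 days and between CON libraries were 714 and 257, 246 and 355, and 348 and 191 with at least 100 summed UMIs. They were 5451 and 2104, 3248 and 3861, and 3156 and 2985 with at least 1 UMI, and 795 and 161, 339 and 455, and 287 and 297 at 2-fold. At 56 days 632 were higher after thinning. Genes higher in members than in other endothelium numbered 14, 68 and 0 under the first 3 of these settings, 15 after thinning, 52 with no interferon limit and 8 without cells of over 2 other-lineage UMIs, and lower ones 59, 482, 83 and, thinned, 56.

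The share passing the rule, in IR then CON at 24 hours and IR then CON at 56 days, was 63.1%, 75.1%, 52.1% and 75.9% after thinning, 62.5%, 67.8%, 45.6% and 67.5% with no interferon limit, and 44.8%, 40.5%, 30.5% and 45.1% without other-lineage cells. It was 52.6% in IR and 52.7% in CON at 24 hours and 51.3% in CON at 56 days with at least 5 capillary UMIs, and 49.0%, 48.8% and 46.7% with Gpihbp1 alone. With no interferon limit the Cdkn1a share in CON at 56 days was 15.7%.

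Among list medians, type I interferon genes at 24 hours became -0.33 with no interferon limit and -0.0072 without other-lineage cells, where interferon-gamma genes became -0.18. Equal weighting of cells gave -0.19 for antioxidant and 0.17 for heat shock genes at 24 hours. Thinning gave 0.096 for TGF-beta and BMP genes, 0.24 for immediate early genes and, reversed, 0.11 for interferon-gamma genes at 56 days, and -0.38 for fatty acid oxidation between CON libraries. Arterial genes between CON libraries became -0.32 without the deepest 5% of members, and cell division genes at 56 days 1.28 with at least 1 UMI.

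Of 138, 135 and 143 listed or named genes with log2 ratios past 1.5-fold at 24 hours, at 56 days and between CON libraries, 49, 47 and 54 were under it in at least 1 alternative, and 25, 24 and 22 others moved by over 1.5 times. Among genes with smaller log2 ratios, 137 of 312, 118 of 262 and 106 of 269 changed sign in at least 1 alternative. Of genes whose ratio was past 1.5-fold, the directions of 13 turned. At 24 hours Acsl3 became -0.24 without other-lineage cells and -0.32 with equal weights, Brca2 -0.018, Gpx3 -1.24 and Mt1 -0.31 with equal weights, and Gclc -0.0096 after thinning. At 56 days Socs3 became 0.061 and Usp18 0.42 with no interferon limit, and Gbp5 0.33, Pparg 0.29 and Rbl2 0.57 after thinning. Between CON libraries Lfng became -0.087 with equal weights, and Gbp6 -0.097 and Nbn -0.885 after thinning. The cause was not tested. IR at 56 days had the fewest members, 168, of the 4 libraries.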
